A study of Mus musculus with 16 samples.

Results

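The 10 genes examined encode interferon gamma, interleukin 12 and interleukin 18 with their receptors, and they were taken by gene symbol from the 18929 genes in the deposited expression table. The ligands were Ifng (Gene ID 15978), Il12a (16159), Il12b (16160) and Il18 (16173). The receptor chains were Ifngr1 (15979), Ifngr2 (15980), Il12rb1 (16161), Il12rb2 (16162), Il18r1 (16182) and Il18rap (16174).

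Interleukin 12 is a dimer of the p35 subunit, encoded by Il12a, and the p40 subunit, encoded by Il12b, and it is made mainly by dendritic cells and macrophages. Interleukin 18 is made as a precursor that inflammatory caspases cut into its active form. Both cytokines act on T cells and natural killer (NK) cells, which carry the interleukin 12 receptor (Il12rb1 and Il12rb2) and the interleukin 18 receptor (Il18r1 and the signaling chain Il18rap), and together they are strong inducers of interferon gamma. Interferon gamma binds the widely expressed receptor chains Ifngr1 and Ifngr2, and JAK kinases then pass on a signal that switches on antigen presentation and chemokine genes in tumor and immune cells.

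To find out whether α-ketoglutarate (α-KG, a metabolite of the tricarboxylic acid cycle) changes the response to an antibody that blocks PD1, an inhibitory receptor of T cells, the study sequenced RNA from 16 tumors, 4 in each of 4 groups. B16F10 cells, a melanoma line from C57BL/6 mice, were injected into the abdomen on the right side in C57BL/6 females aged 7 to 8 weeks. The groups were vehicle (labeled Vehicle), anti-PD1 (PD1mAb), α-KG at 100 mg/kg (alpha_KG) and α-KG + anti-PD1 (aKG_PD1mAb), given into the peritoneum for 9 to 11 days from a tumor volume of about 50 cubic millimeters. All 4 groups carried the same cell line, with no altered allele named, vehicle was corn oil with an isotype control antibody, and each tumor was an independent sample, so the spread between tumors is that of separate animals. Values are FPKM, fragment counts scaled by transcript length and library size, and the tumor number is the replicate number of the label.

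The 7 melanocyte markers summed to between 7845 and 10572 FPKM in the 16 tumors, and the 5 keratinocyte markers to no more than 0.80 FPKM. The tumors were bulk tissue, so fewer cells of a type and less RNA per cell cannot be told apart. The share of hemoglobin genes in the FPKM sum was 2.09% to 2.23% with the combined treatment and 4.23% to 22.2% in the other groups. The median log2 fold change of α-KG + anti-PD1 against vehicle over all 12850 genes tested was 0.15 in the deposited values, but -0.11 with quantile-normalized values, -0.16 with median-centered tumors and 0.34 when tumors were rescaled to the same sum. The read depth of the tumors is unknown, which limits the genes below 1 FPKM most.

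The start regions of the genes were read for short motifs to show what the genes share in sequence. RefSeq start sites (GRCm38.p6) were found for 9 of the 10 genes, in 12 windows of the 250 bases before a start. The γ-activated site letters TTCNNNGAA were present in 7.04% of 32536 mouse windows, and among these genes in the windows of Ifng, Il12rb2 and the third start of Il18r1. The NF-kB letters GGGANTTTC (or GAAANTCCC on the other strand) were in 0.944% of windows and in that of Ifngr2. The TATA box letters TATAAA (or TTTATA on the other strand) were in 12.3% of windows and in those of Ifng, at -30 from the start, and Il18, as TTTATA at -175. The windows of Il12a, Il12b, Il18rap and Ifngr1 held none of these, and no window of the 10 genes held the interferon regulatory factor letters GAAANNGAA (or TTCNNTTTC, 7.15% of windows), the T-box letters TCACACCT (or AGGTGTGA, 1.12%) or the AP-1 letters TGANTCA (6.73%). Both strands were read. The windows of 4 genes are given, those of Ifng and Il12rb2 with the γ-activated site letters, that of Ifngr2 with the NF-kB letters, and that of Il18rap without a match, at chr10:118440796-118441045 (plus strand), chr6:67376189-67376438 (minus strand), chr16:91546809-91547058 (plus) and chr1:40515112-40515361 (plus). Capitals mark the matched letters, which in Ifng begin at -249 and -30 from the start (γ-activated site letters, then TATA box), in Il12rb2 at -123 and in Ifngr2 at -74.
Ifng: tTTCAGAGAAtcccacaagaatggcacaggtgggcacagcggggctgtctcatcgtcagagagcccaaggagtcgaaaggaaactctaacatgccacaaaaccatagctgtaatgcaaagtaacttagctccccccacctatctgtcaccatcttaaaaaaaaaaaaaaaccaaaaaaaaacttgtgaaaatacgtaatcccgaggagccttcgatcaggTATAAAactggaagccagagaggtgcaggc
Il12rb2: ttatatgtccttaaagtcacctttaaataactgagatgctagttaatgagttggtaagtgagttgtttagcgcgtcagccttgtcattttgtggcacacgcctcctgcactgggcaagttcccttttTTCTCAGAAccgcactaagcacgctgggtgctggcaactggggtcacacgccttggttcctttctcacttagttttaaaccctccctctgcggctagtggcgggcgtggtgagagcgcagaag
Ifngr2: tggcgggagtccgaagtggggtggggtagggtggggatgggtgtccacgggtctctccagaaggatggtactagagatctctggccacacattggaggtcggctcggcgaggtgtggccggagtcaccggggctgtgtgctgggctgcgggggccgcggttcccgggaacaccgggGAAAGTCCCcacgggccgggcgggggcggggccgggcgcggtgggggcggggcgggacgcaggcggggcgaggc
Il18rap: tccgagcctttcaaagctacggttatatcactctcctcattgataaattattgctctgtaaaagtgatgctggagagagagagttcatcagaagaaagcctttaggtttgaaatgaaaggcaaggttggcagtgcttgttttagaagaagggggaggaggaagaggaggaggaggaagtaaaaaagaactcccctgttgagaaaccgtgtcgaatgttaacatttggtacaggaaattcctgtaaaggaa
A match of letters is a description of the sequence and was not tested as a binding site.

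Interferon gamma RNA had its highest level in the α-KG + anti-PD1 group. Ifng (chr10:118441046-118445892 in the mouse GRCm38 build, protein coding) was at 0.79, 0.26, 0.00 and 0.11 FPKM in vehicle tumors 1 to 4. It was at 0.26, 1.63, 2.42 and 0.72 FPKM with anti-PD1 and at 0.27, 0.77, 0.18 and 0.06 FPKM with α-KG. In the α-KG + anti-PD1 tumors it was at 11.49, 4.37, 14.40 and 1.37 FPKM, so all 4 lay above every vehicle and every α-KG tumor, while tumor 4 lay within the range of the anti-PD1 tumors. The group means were 0.290 ± 0.350, 1.26 ± 0.962, 0.320 ± 0.312 and 7.91 ± 6.06 FPKM (SD, n = 4 tumors each) in the same order.

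Differences were taken on log2(FPKM + 1), so that folds of weakly expressed genes come out too small. Ifng was higher with the combined treatment by 2.44 than with α-KG (limma adjusted p = 0.00151). From anti-PD1 it differed by 1.74 (limma adjusted p = 0.0260), a call lost without anti-PD1 tumor 1 or 4 and without tumor 1 or 3 of the combined group (1.37 to 1.65, adjusted p from 0.0675 to 0.102). The difference from vehicle was 2.48 (SE 0.46, limma adjusted p = 0.000946). Neither single treatment changed it past the threshold, with log2 fold changes against vehicle of 0.74 for anti-PD1 (95% interval -0.24 to 1.72) and 0.04 for α-KG (-0.94 to 1.03). The limma interaction, how far the anti-PD1 effect differed when α-KG was also given, was 1.70 (SE 0.66, adjusted p = 0.0993) and did not pass. With single tumors left out it ran from 1.32 to 2.22, and its limma adjusted p over the alternatives ran from 0.0146 to 0.224. It passed only without α-KG + anti-PD1 tumor 4, the lowest of its group (2.22, adjusted p = 0.0146). Exons of Ifng overlap those of Gm49751 on the same strand, and the share of fragments from each was not tested.

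**Figure D1:**
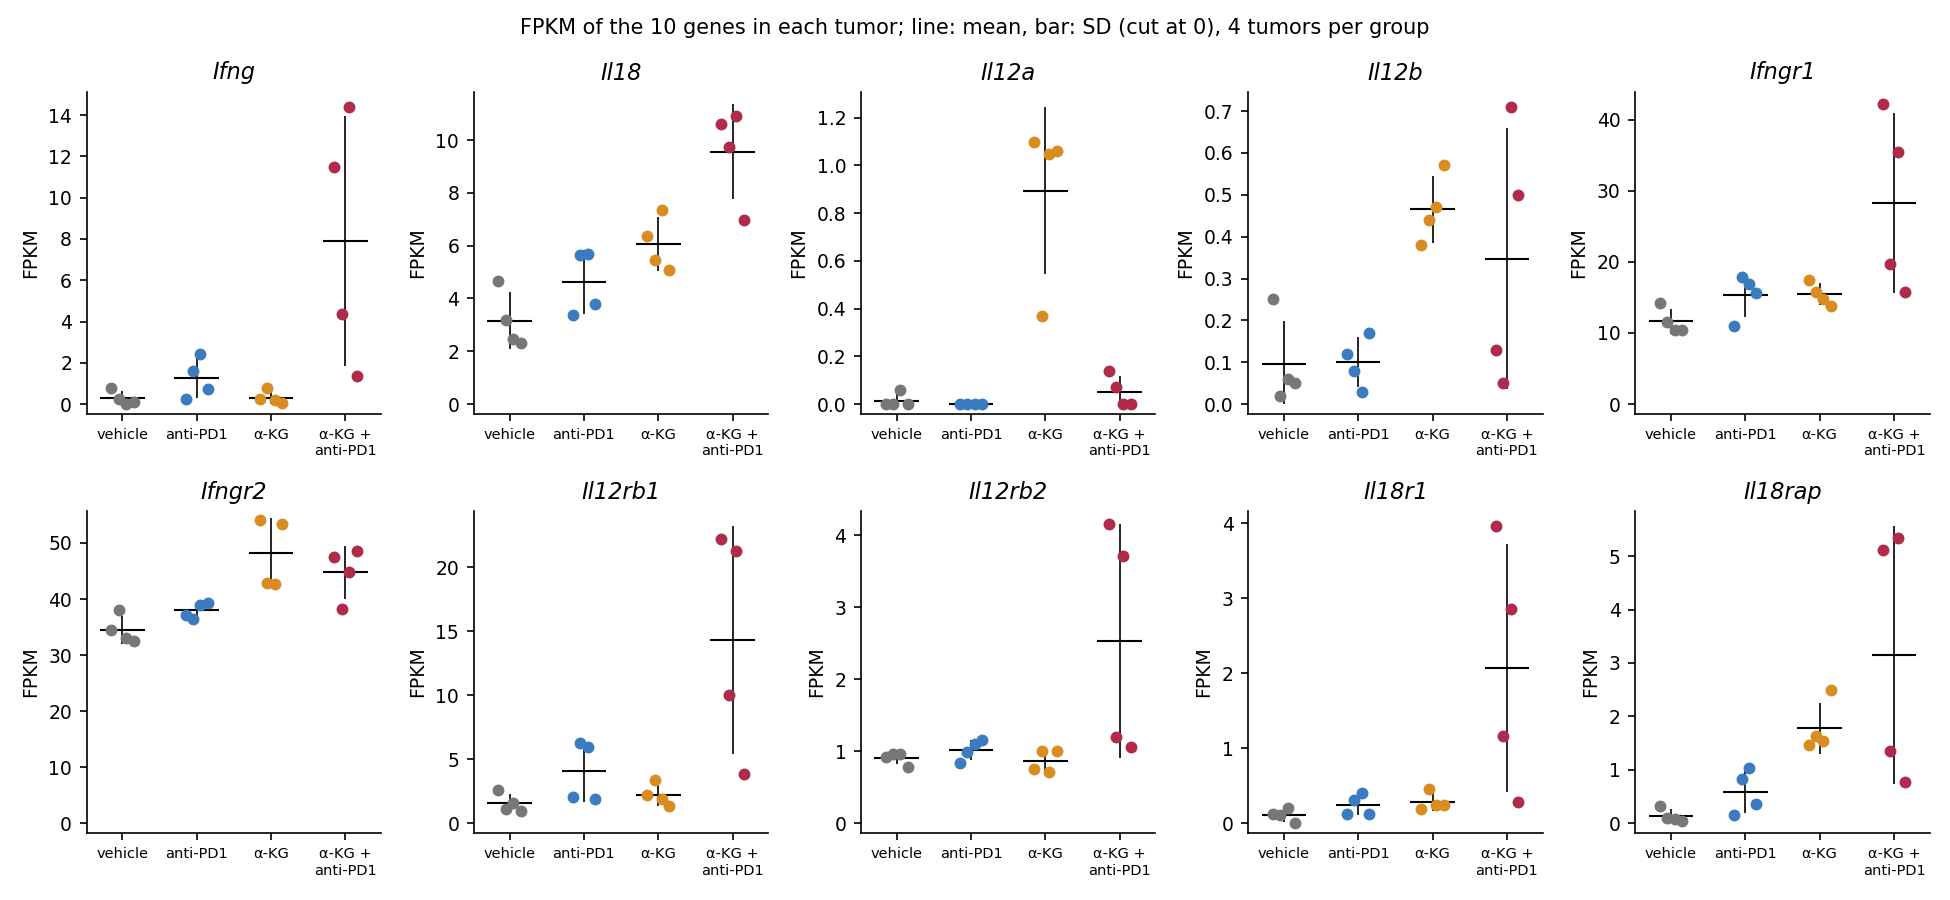
FPKM (linear axis) of the 10 genes in each tumor, with points for tumors 1 to 4 from left to right within a group, a line at the group mean and a bar for the SD. Ifng, Il12rb1, Il12rb2, Il18r1 and Ifngr1 were highest in tumors 1 and 3 of the α-KG + anti-PD1 group, whereas all 4 α-KG tumors stood above all others in Il12a.

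Interleukin 18, which unlike Ifng was present at more than 2 FPKM in every tumor, differed between vehicle and both groups given α-KG. Il18 (chr9:50554827-50581840) was at 4.67, 3.19, 2.47 and 2.30 FPKM in vehicle and at 3.37, 5.64, 5.68 and 3.81 FPKM in anti-PD1 tumors. It was at 6.37, 5.44, 7.34 and 5.06 FPKM in α-KG and at 10.62, 9.73, 10.91 and 6.97 FPKM in α-KG + anti-PD1 tumors. The α-KG + anti-PD1 tumors lay above every vehicle and anti-PD1 tumor, the α-KG tumors lay above every vehicle tumor, and only tumor 4 of the combined group fell within the range of the α-KG group. The combined group exceeded vehicle by 1.36 on the log2 scale (SE 0.19, limma adjusted p = 0.000417) and α-KG by 0.58 (adjusted p = 0.0275). It exceeded anti-PD1 by 0.92 (limma adjusted p = 0.0124), or by 0.80 without anti-PD1 tumor 1, where the call was lost (adjusted p = 0.0546). α-KG alone also raised it against vehicle, by 0.79 (adjusted p = 0.0113), and for anti-PD1 alone the limma value was 0.44 (adjusted p = 0.262). The step from α-KG to the combined group was 0.29 with quantile-normalized values (limma adjusted p = 0.148) and 0.30 with centered ones (adjusted p = 0.145). It also lost its call without α-KG tumor 2 or 4 or without α-KG + anti-PD1 tumor 1, 2 or 3, where it ran from 0.51 to 0.56. Some or all markers of macrophages and of all leukocytes were also higher than vehicle in both groups given α-KG, but not in every comparison where Il18 was. From α-KG to the combined group, 4 of 7 macrophage and 0 of 5 leukocyte markers were higher (31.8% of all genes). From anti-PD1 to the combined group, 0 of 7 macrophage and 1 of 5 leukocyte markers were higher (14.2% of all genes). The macrophage sum was 665 to 1609 FPKM with α-KG + anti-PD1 (7 of 7 higher than in vehicle) and 418 to 794 FPKM with anti-PD1 (1 of 7 higher), against 96.3 to 479 FPKM in vehicle and 418 to 686 FPKM with α-KG (3 of 7 higher). The sum of 5 markers of all leukocytes was 19.1 to 85.3 FPKM in vehicle, 97.0 to 184 FPKM with anti-PD1, 258 to 282 FPKM with α-KG and 140 to 528 FPKM with α-KG + anti-PD1, and all 5 rose against vehicle in both groups given α-KG. Over all genes, 34.9% were higher than in vehicle with α-KG + anti-PD1, 8.4% with α-KG and 0.467% with anti-PD1. No marker of either list was at 0 throughout a group, and their part in the Il18 values was not tested.

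The subunits of interleukin 12 followed another pattern. Il12a was highest with α-KG alone, and Il12b was higher with α-KG than in vehicle but did not pass the test between the groups given α-KG. Il12a (chr3:68690644-68698547) was at 1.10, 0.37, 1.05 and 1.06 FPKM in the α-KG tumors. It was listed at 0 in all 4 anti-PD1 tumors and at 0.00, 0.00, 0.06 and 0.00 FPKM in vehicle, and at 0.14, 0.07, 0.00 and 0.00 FPKM with α-KG + anti-PD1. Every α-KG tumor was therefore above each of the other 12 tumors. Il12b (chr11:44400063-44414033) was at 0.38, 0.44, 0.47 and 0.57 FPKM with α-KG, against 0.25, 0.02, 0.06 and 0.05 FPKM in vehicle and 0.12, 0.08, 0.03 and 0.17 FPKM with anti-PD1. In the α-KG + anti-PD1 tumors Il12b was spread over 0.13, 0.05, 0.71 and 0.50 FPKM, which overlaps every other group.

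Neither subunit reached 0.5 FPKM in 4 tumors, so they were tested only in a limma fit without that filter, over 18924 genes. There Il12a rose by 0.88 with α-KG against vehicle (SE 0.10, adjusted p = 6.77e-05) and fell by 0.83 from α-KG to α-KG + anti-PD1 (adjusted p = 0.000246), and its interaction was -0.81 (SE 0.15, adjusted p = 0.00737). With Il12a at or near 0 in vehicle, anti-PD1 could not lower it without α-KG, so that interaction largely repeats the fall. Il12b was 0.42 higher with α-KG than in vehicle (SE 0.12, adjusted p = 0.0420). Over the alternatives its adjusted p ran from 0.0146 to 0.108, and leaving out vehicle tumor 2, 3 or 4 or any 1 of the α-KG tumors took it past 0.05 with log2 fold changes of 0.39 to 0.45. The limma difference of Il12b was 0.28 between α-KG + anti-PD1 and vehicle (adjusted p = 0.104) and -0.15 between α-KG + anti-PD1 and α-KG (95% interval -0.41 to 0.11, adjusted p = 0.411). Without the filter, 5.7% of genes were higher with α-KG than in vehicle, 4.67% were lower with α-KG + anti-PD1 than with α-KG, 1.89% had a negative interaction and 1.82% were higher with α-KG than with anti-PD1.

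The α-KG tumors also stood apart in a marker list of another cell type. The 5 neutrophil markers (S100a8, S100a9, Csf3r, Cxcr2 and Ly6g) summed to 1004 to 2628 FPKM in the α-KG tumors, against 20.8 to 36.6 FPKM in vehicle, 17.3 to 94.9 FPKM in anti-PD1 and 29.2 to 104 FPKM in α-KG + anti-PD1 tumors, and all 5 rose with α-KG against vehicle. All 5 fell from α-KG to α-KG + anti-PD1. Over all genes, 8.4% were higher with α-KG than in vehicle and 6.47% were lower with α-KG + anti-PD1 than with α-KG. Ly6g averaged 0 FPKM in vehicle and 0.1075 FPKM with α-KG + anti-PD1, so no tumor of these groups reached 0.5 FPKM. It passed the filter on low values only through the other groups, α-KG among them, and its calls are not separate evidence. Within the α-KG group, tumor 2 had both the lowest neutrophil sum (1004 FPKM) and the lowest Il12a (0.37 FPKM), and it had the highest T-cell marker sum (35.2 FPKM against 6.47 in the lowest α-KG tumor). Among tumors 1, 3 and 4 Il12a did not follow the neutrophil sum. The sums were 1430, 1906 and 2628 FPKM, and Il12a was at 1.10, 1.05 and 1.06 FPKM. The dendritic cell markers, of a cell type known to make interleukin 12, summed to 21.8 to 35.2 FPKM with α-KG and to 13.1 to 15.6 FPKM in vehicle, and 2 of 6 tested rose. They summed to 15.7 to 22.9 FPKM with anti-PD1 and 18.4 to 24.0 FPKM with α-KG + anti-PD1, and none of the 7 listed was at 0 throughout a group, whereas 1 neutrophil marker was listed at 0 in all vehicle tumors. The 7 macrophage markers, of the other main source of interleukin 12, were 3 of 7 higher with α-KG, with the sums given for Il18. The part of these 3 cell types in the Il12a and Il12b values was not tested.

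The interferon gamma receptor chains had the highest group means of FPKM, a value per length, among the 10 genes, and they differed from each other in where they rose. Ifngr1 (chr10:19591949-19610229), the ligand-binding chain, was at 14.15, 11.51, 10.42 and 10.41 FPKM in vehicle, and at 10.98, 17.89, 16.86 and 15.65 FPKM with anti-PD1. It was at 17.43, 15.78, 14.81 and 13.85 FPKM with α-KG and at 42.25, 19.70, 35.47 and 15.70 FPKM with α-KG + anti-PD1. Tumors 1, 2 and 3 of the combined group lay above all 12 other tumors and tumor 4 lay within the ranges of both single treatments. The combined group exceeded vehicle by 1.12 (SE 0.24, limma adjusted p = 0.00211), α-KG by 0.73 (adjusted p = 0.0260) and anti-PD1 by 0.75 (adjusted p = 0.0452). The last call was lost under several settings and without tumor 1, 3 or 4 of the anti-PD1 group or tumor 1 or 3 of the combined group, with limma adjusted p between 0.00761 and 0.158 over the alternatives. The call against α-KG was lost without α-KG tumor 3 or 4 or tumor 1 or 3 of the combined group, with limma adjusted p between 0.00368 and 0.0977.

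Ifngr2 (chr16:91547072-91565623), the chain that brings JAK2 into the receptor, varied far less. It was at 34.45, 38.09, 33.00 and 32.60 FPKM in vehicle and at 37.23, 36.50, 38.94 and 39.21 FPKM with anti-PD1. With α-KG it was at 54.05, 42.78, 42.69 and 53.29 FPKM, and with α-KG + anti-PD1 at 47.54, 38.14, 44.75 and 48.57 FPKM. Both groups given α-KG lay above every vehicle tumor, and the highest values were those of α-KG alone. Ifngr2 rose by 0.46 with α-KG against vehicle (SE 0.09, limma adjusted p = 0.00326) and by 0.36 with α-KG + anti-PD1 (SE 0.09, adjusted p = 0.00634). The second of these was 0.05 after centering on the tumor medians (adjusted p = 0.677). The difference between α-KG + anti-PD1 and α-KG was -0.10 (95% interval -0.30 to 0.10, adjusted p = 0.409), and its sign depended on the scaling.

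The interleukin 12 receptor chains rose with α-KG + anti-PD1 against vehicle, and neither passed the test with α-KG alone. Il12rb1 (chr8:70808449-70821424), the chain shared with the interleukin 23 receptor, was at 2.61, 1.11, 1.56 and 0.98 FPKM in vehicle and at 2.07, 6.31, 5.97 and 1.87 FPKM with anti-PD1. It was at 2.23, 3.41, 1.87 and 1.36 FPKM with α-KG and at 22.23, 10.01, 21.22 and 3.89 FPKM with α-KG + anti-PD1, above every vehicle and α-KG tumor. Its log2 difference was 2.37 from vehicle (SE 0.44, limma adjusted p = 0.000891) and 2.04 from α-KG (adjusted p = 0.00287). From anti-PD1, whose range held tumor 4 of the combined group, it was 1.49 (limma adjusted p = 0.0361), with a range of 0.00468 to 0.128 over the alternatives and the call lost without anti-PD1 tumor 1 or 4 or any of tumors 1, 2 and 3 of the combined group.

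Il12rb2 (chr6:67291318-67376188, minus strand), the signaling chain that marks cells able to respond to interleukin 12, stayed between 0.71 and 1.16 FPKM in the other 3 groups. It was at 0.92, 0.96, 0.96 and 0.79 FPKM in vehicle, 0.84, 0.99, 1.10 and 1.16 FPKM with anti-PD1 and 0.76, 1.01, 0.71 and 1.01 FPKM with α-KG. With α-KG + anti-PD1 it was at 4.16, 1.20, 3.71 and 1.06 FPKM, so tumors 1 and 3 stood far above the rest while tumors 2 and 4 lay near the other groups. It was 0.77 above vehicle (SE 0.24, limma adjusted p = 0.0163) and 0.79 above α-KG (adjusted p = 0.0159), and 0.68 above anti-PD1, which did not pass (adjusted p = 0.0592). Against vehicle the value was 0.28 with quantile-normalized data (limma adjusted p = 0.286), 0.54 without tumor 1 of the combined group (adjusted p = 0.0536) and 0.59 without its tumor 3 (adjusted p = 0.0606). Leaving out either tumor also lost the call against α-KG, at limma adjusted p of 0.0510 and 0.0569. Exons of Il12rb2 overlap those of Serbp1 on the opposite strand. Serbp1 was at 78.6 to 129 FPKM in the 16 tumors, and whether the counting used strand is not given in the sources used here, so fragments of the 2 genes in the overlap cannot be told apart here.

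The interleukin 18 receptor genes are neighbors on chromosome 1, with 14507 bases between them, but did not share 1 pattern. Il18r1 (chr1:40465552-40500854), the ligand-binding chain, was at 0.12, 0.11, 0.20 and 0.00 FPKM in vehicle and at 0.13, 0.31, 0.40 and 0.13 FPKM with anti-PD1. It was at 0.19, 0.46, 0.24 and 0.25 FPKM with α-KG and at 3.96, 1.17, 2.86 and 0.29 FPKM with α-KG + anti-PD1. Tumors 1, 2 and 3 of the combined group lay above all others, and tumor 4 lay within the ranges of both single treatments. Only those 3 tumors reached 0.5 FPKM, so Il18r1 was tested without the filter, where the combined group exceeded vehicle by 1.29 (SE 0.29, limma adjusted p = 0.00492), α-KG by 1.08 (adjusted p = 0.0155) and anti-PD1 by 1.13 (adjusted p = 0.0363). The last was lost without anti-PD1 tumor 1, 3 or 4 or tumor 1 or 3 of the combined group, and the call against α-KG without tumor 3 of the combined group (limma adjusted p = 0.0534). In that fit 25% of genes were higher than in vehicle, 6.76% higher than with anti-PD1 and 21.8% higher than with α-KG. With only the groups compared in the fit none of the 3 differences passed, at adjusted p = 0.0563, 0.162 and 0.0977 in the same order.

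Il18rap (chr1:40515362-40551705) was at 0.33, 0.11, 0.09 and 0.04 FPKM in vehicle and at 0.16, 0.83, 1.03 and 0.36 FPKM with anti-PD1. With α-KG alone it was at 1.46, 1.64, 1.54 and 2.49 FPKM and all 4 tumors exceeded every vehicle and anti-PD1 tumor. With α-KG + anti-PD1 it was at 5.11, 1.36, 5.34 and 0.77 FPKM, and tumors 2 and 4 lay below every α-KG tumor while tumors 1 and 3 lay above. Il18rap rose by 1.28 with α-KG against vehicle (SE 0.33, limma adjusted p = 0.0170) and by 1.65 with α-KG + anti-PD1 (SE 0.33, adjusted p = 0.00153). Against anti-PD1 the combined group was 1.20 higher (limma adjusted p = 0.0309), a call lost without anti-PD1 tumor 1 or 4 or tumor 1 or 3 of the combined group (0.92 to 1.13, adjusted p up to 0.114). Between α-KG + anti-PD1 and α-KG alone the difference was 0.37 (95% interval -0.34 to 1.08, adjusted p = 0.399). In the α-KG group the tumor with the highest neutrophil marker sum, tumor 4 at 2628 FPKM, also had the highest Il18rap. Tumor 2, with the lowest sum of that group (1004 FPKM), had Il18rap at 1.64 FPKM, above tumors 1 and 3. In the combined group tumor 4 had the highest neutrophil sum (104 FPKM) and the lowest Il18rap. The part of neutrophils in the Il18rap values was not tested.

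**Figure D2:**
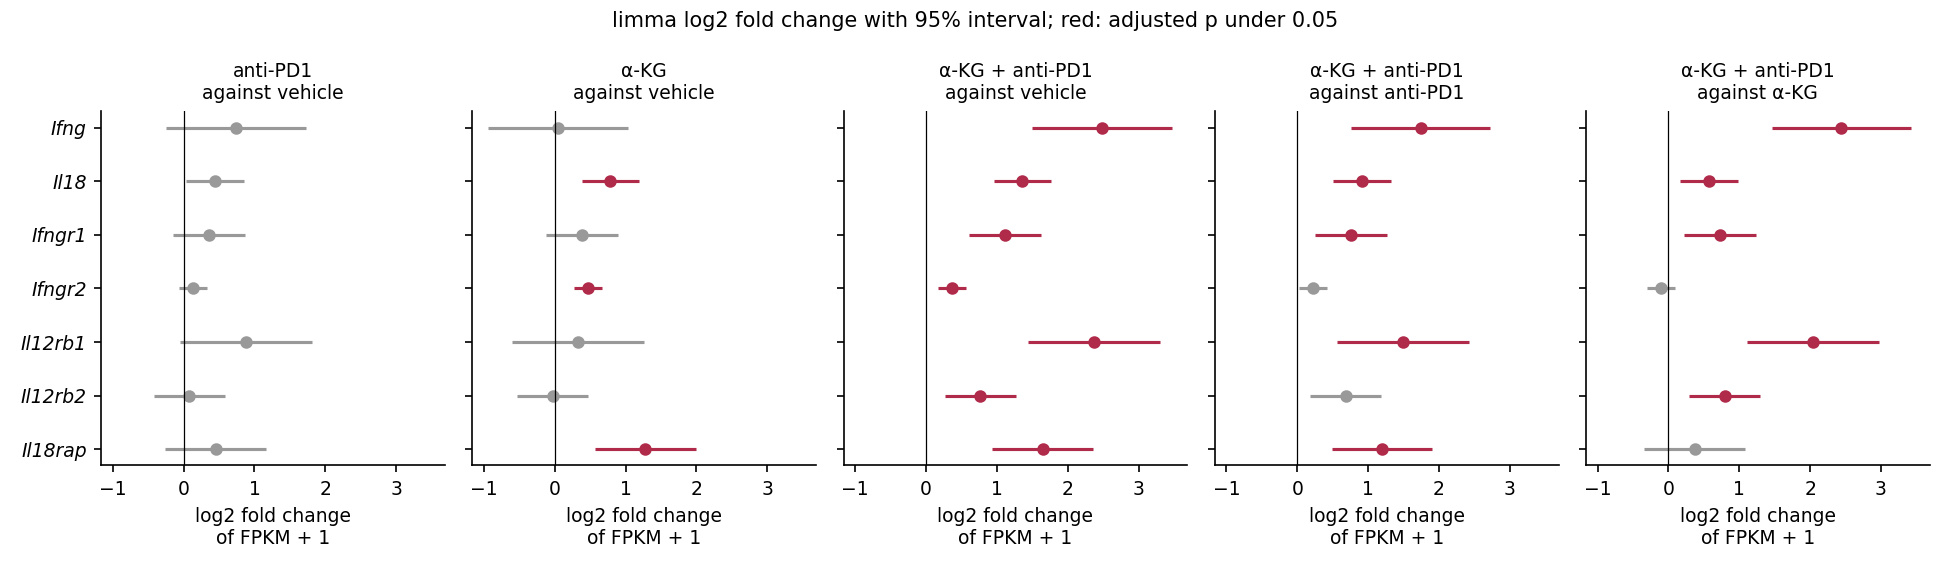
log2 fold change of FPKM + 1 (x axis) with its 95% interval for the 7 genes that passed the filter on low values, in 5 comparisons, with red for an adjusted p under 0.05. All 7 intervals lie above 0 for α-KG + anti-PD1 against vehicle, and against α-KG the values of Ifngr2 (-0.10) and Il18rap (0.37) have intervals that include 0.

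Over the genes that passed the filter (7 of 10, without Il12a, Il12b and Il18r1), 7 were higher and 0 lower with α-KG + anti-PD1 than in vehicle, and all 7 had every treated tumor above every vehicle tumor. Over all genes tested, 34.9% were higher, 10.5% lower and 28.2% separate in this way. The separation was narrow for Ifngr2 (lowest treated tumor 38.14, highest vehicle tumor 38.09 FPKM) and Il12rb2 (1.06 and 0.96 FPKM). After centering on the tumor medians these genes lost their call, at log2 fold changes of 0.05 and 0.45. The split of all genes moved with the scaling, from 4479 higher and 1348 lower to 2241 and 3994 with quantile-normalized values, 2197 and 4803 with centered tumors and 6294 and 250 with rescaling to the same sum, while of the 7 genes 6, 5 and 7 were higher and 0 lower in that order. The median log2 fold change was 1.36 for the 7 genes and 0.15 for all genes. The vehicle means of Ifng (0.290 FPKM) and Il18rap (0.1425 FPKM) lay below the 0.5 FPKM of the filter. The place of these genes among the 7 thus rests largely on the other groups, the combined one among them. Against anti-PD1, 5 of the 7 were higher where 14.2% of all genes were higher and 1.31% lower. This count fell to 0 when only the α-KG + anti-PD1 and anti-PD1 tumors were fitted, a fit that called no gene at all, and to 0 without anti-PD1 tumor 1. It was 1 without tumor 4 of the anti-PD1 group and without tumor 1 or 3 of the combined group. Against α-KG, 5 of the 7 were higher where 31.8% of all genes were higher and 6.47% lower, and this count was 2 without tumor 1 or 3 of the combined group and 3 without tumor 4 of the α-KG group. These 3 comparisons share the 4 α-KG + anti-PD1 tumors.

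With α-KG alone against vehicle, 3 of the 7 (Il18, Ifngr2 and Il18rap) were higher and 0 lower, the same 3 having every α-KG tumor above every vehicle tumor, where 8.4% of all genes were higher, 7.53% lower and 10.1% separate. With anti-PD1 alone 0 of the 7 passed limma's adjusted threshold in either direction, with 0.467% of all genes higher and 0.28% lower. Only Il18 had an unadjusted limma p under 0.05 there (p = 0.0345), and exact two-sided permutation tests gave no p under 0.05 for any of the 10 genes. Between α-KG and anti-PD1 0 of the 7 passed (2.8% of all genes were higher and 0.358% lower), and 2 had an unadjusted limma p under 0.05, Ifngr2 (0.00303) and Il18rap (0.0260). The interaction passed for 0 of the 7 (7.99% of all genes positive, 3.13% negative), with unadjusted limma p under 0.05 for Ifng (0.0198) and Il12rb2 (0.0492). An exact permutation test of 4 tumors against 4 cannot go below p = 0.0286, and after adjustment over the 60 tests of the 10 genes that smallest p became 0.0779, so none of the 60 passed.

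Since T and NK cells carry these receptors and make interferon gamma, the levels of 5 genes were set against the mean of 7 T-cell markers (Cd3d, Cd3e, Cd3g, Cd247, Cd2, Cd5 and Lat) in the same tumor. That mean was 0.189 to 1.32 FPKM in vehicle, 1.16 to 3.74 FPKM in anti-PD1, 0.924 to 5.02 FPKM in α-KG and 3.03 to 26.7 FPKM in α-KG + anti-PD1 tumors. All 7 markers rose with α-KG + anti-PD1 in each of the 3 comparisons. Over all genes, 34.9% were higher against vehicle, 14.2% against anti-PD1 and 31.8% against α-KG. The vehicle means of Cd3e (0.4375 FPKM) and Cd5 (0.205 FPKM) lay below the level of the filter on low values, which limits their calls. The markers were highest in tumors 1 and 3 of the combined group (26.7 and 21.4 FPKM) and lowest in tumor 4 (3.03 FPKM), the order also seen in Il12rb1 and Il18r1. The 5 NK-cell markers had a sum of 43.3, 6.19, 35.9 and 2.67 FPKM in tumors 1 to 4 of that group, and no more than 6.09 FPKM in any tumor of the other groups.

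Relative to these T-cell markers the difference in Ifng between α-KG + anti-PD1 and vehicle did not pass the test. The mean log2 ratio was -0.91 ± 0.29 (SD, n = 4) with α-KG + anti-PD1, -1.10 ± 0.39 in vehicle, -1.15 ± 0.54 with anti-PD1 and -2.26 ± 0.42 with α-KG. The difference was 0.19 from vehicle (exact two-sided permutation p = 0.429), 0.25 from anti-PD1 (exact p = 0.429) and 1.35 from α-KG (exact p = 0.0286, the smallest p possible, with every tumor of the combined group above every α-KG tumor). In vehicle tumors 3 and 4 Ifng was at 0.00 and 0.11 FPKM and the T-cell marker mean at 0.189 and 0.287 FPKM. Their ratios rest largely on the added 0.1 FPKM. Ifng was also low with α-KG (0.06 to 0.77 FPKM). These ratios therefore cannot show whether Ifng per T cell changed. For the receptors the log2 ratio differed from vehicle by -1.22 in Il12rb1 and -2.99 in Il12rb2 (exact p = 0.0286 each), with the combined group lower, and from α-KG by -2.29 in Il18rap (exact p = 0.0286). In vehicle Il12rb2 stayed at 0.79 to 0.96 FPKM while the T-cell marker mean was only 0.189 to 1.32 FPKM. The vehicle ratios of Il12rb2 therefore depend strongly on that low mean, and its exon overlap with Serbp1 limits them too. They do not show a loss of Il12rb2 per T cell. None of the 15 ratio tests passed after adjustment, where the smallest adjusted value was 0.107. With 0.0286 as the smallest exact p possible, a pass needs many of the 15 tests to reach it, so this outcome says little.

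**Figure D3:**
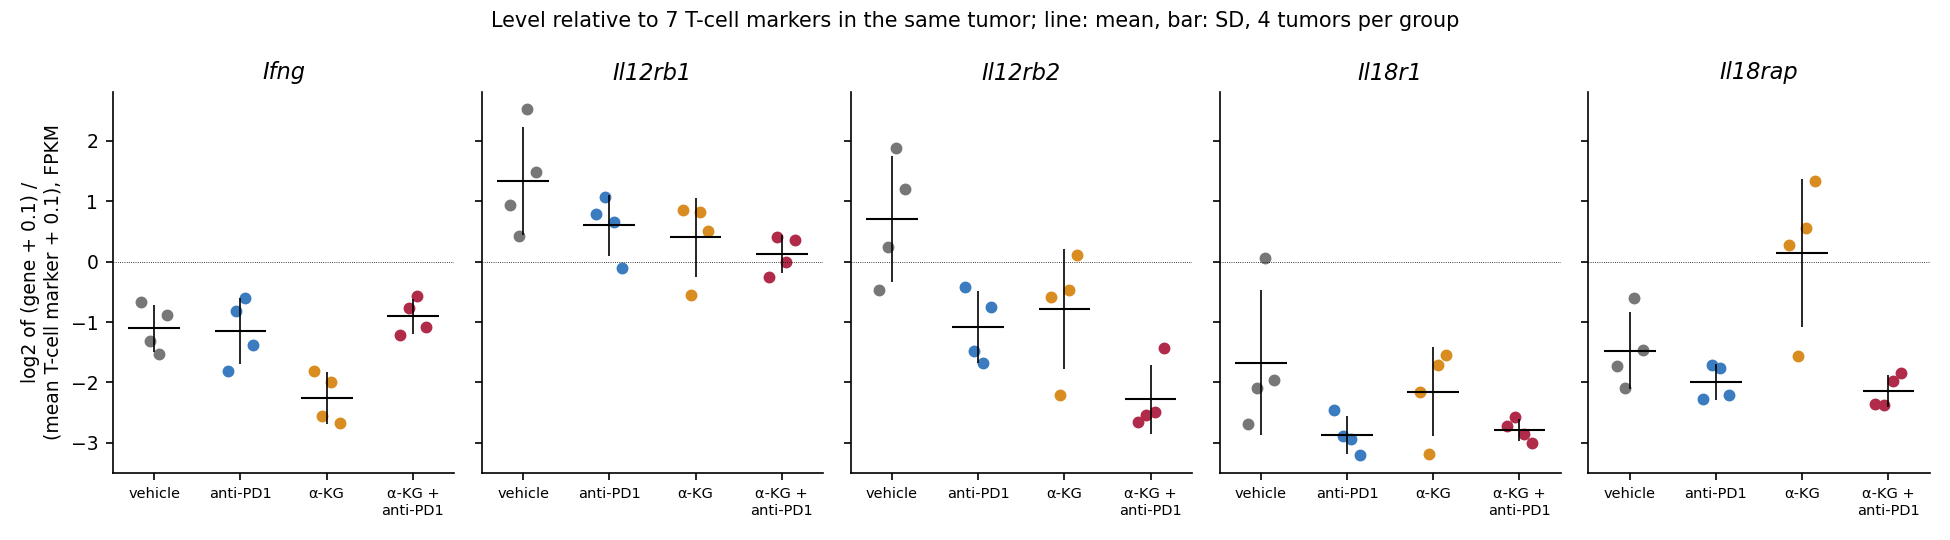
log2 ratio of each gene to the mean of 7 T-cell markers in the same tumor (y axis, 0.1 FPKM added to both), with points for tumors 1 to 4, a line at the group mean and a bar for the SD. Ifng has its lowest mean with α-KG (-2.26), Il12rb2 has its lowest with α-KG + anti-PD1 (-2.28), and Il18rap has its highest with α-KG (0.15).

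**Figure D4:**
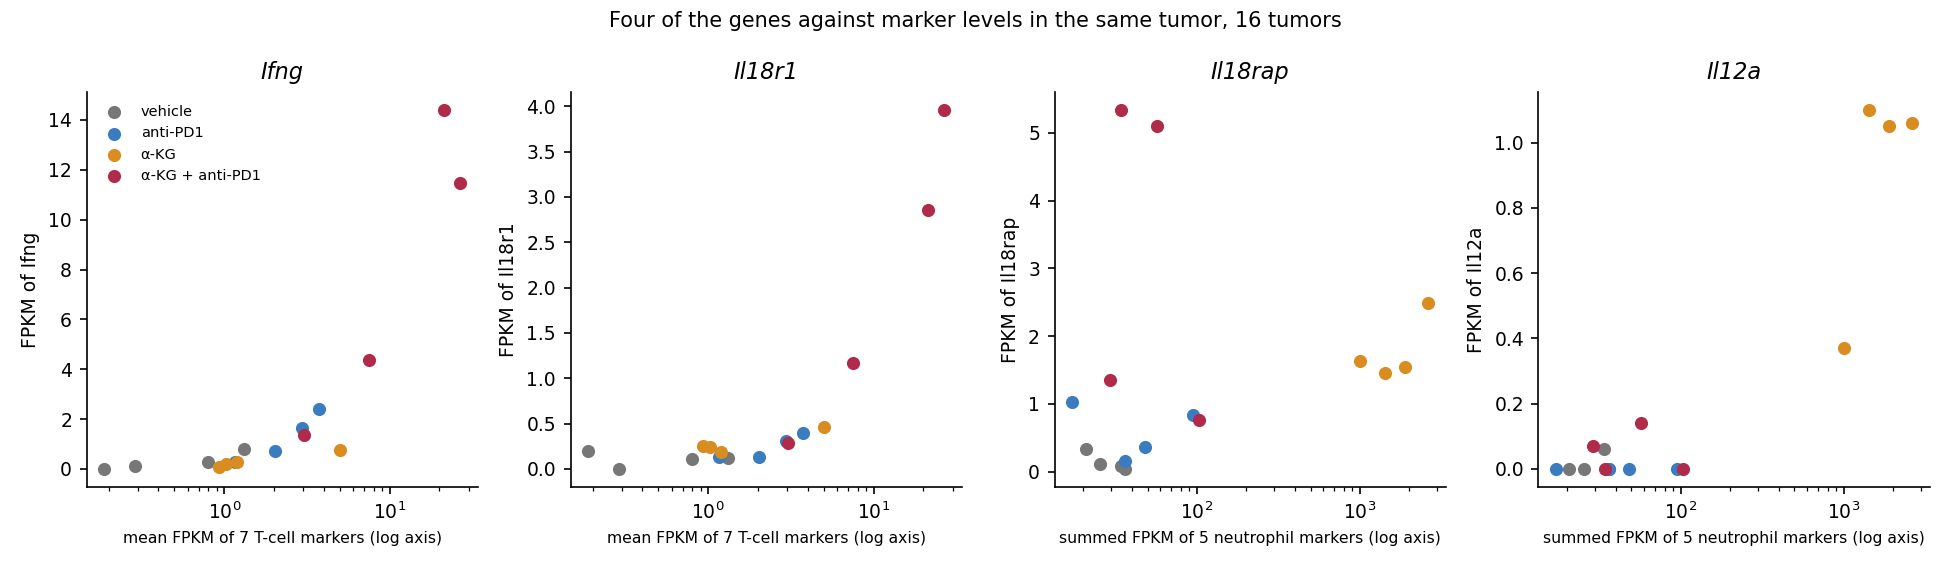
FPKM of 4 genes in the 16 tumors (y axis, linear) against the mean of 7 T-cell markers or the sum of 5 neutrophil markers in the same tumor (x axis, FPKM on a log axis), colored by group. Ifng and Il18r1 were highest in the tumors with the most T-cell marker RNA, and the 4 α-KG tumors lie apart at 1004 to 2628 FPKM of neutrophil markers with Il12a between 0.37 and 1.10 FPKM.

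The variation between tumors of the same group was itself shared by most of these genes. Over the 16 tumors, Pearson's r of log2(FPKM + 1) was 0.98 between Ifng and Il12rb1, 0.93 between Ifng and Il18r1 and 0.92 between Ifng and Ifngr1. On deviations from the group means these values were 0.94, 0.88 and 0.91. Ifngr2 did not follow Ifng (0.21, and -0.06 on deviations), and the interleukin 12 subunits did not follow each other within groups (0.54 over all tumors, -0.19 on deviations). The spread within a group was largest with α-KG + anti-PD1, with an SD of 6.06 FPKM for Ifng against 0.312 to 0.962 FPKM in the other groups. For Ifngr1 the SD was 12.6 FPKM against 1.53 to 3.05 FPKM. The values on deviations therefore weigh the tumors of that group most, where tumors 1 and 3 were high. All these values are descriptions over 16 tumors that share groups, T-cell content and the same FPKM scaling.

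**Figure D5:**
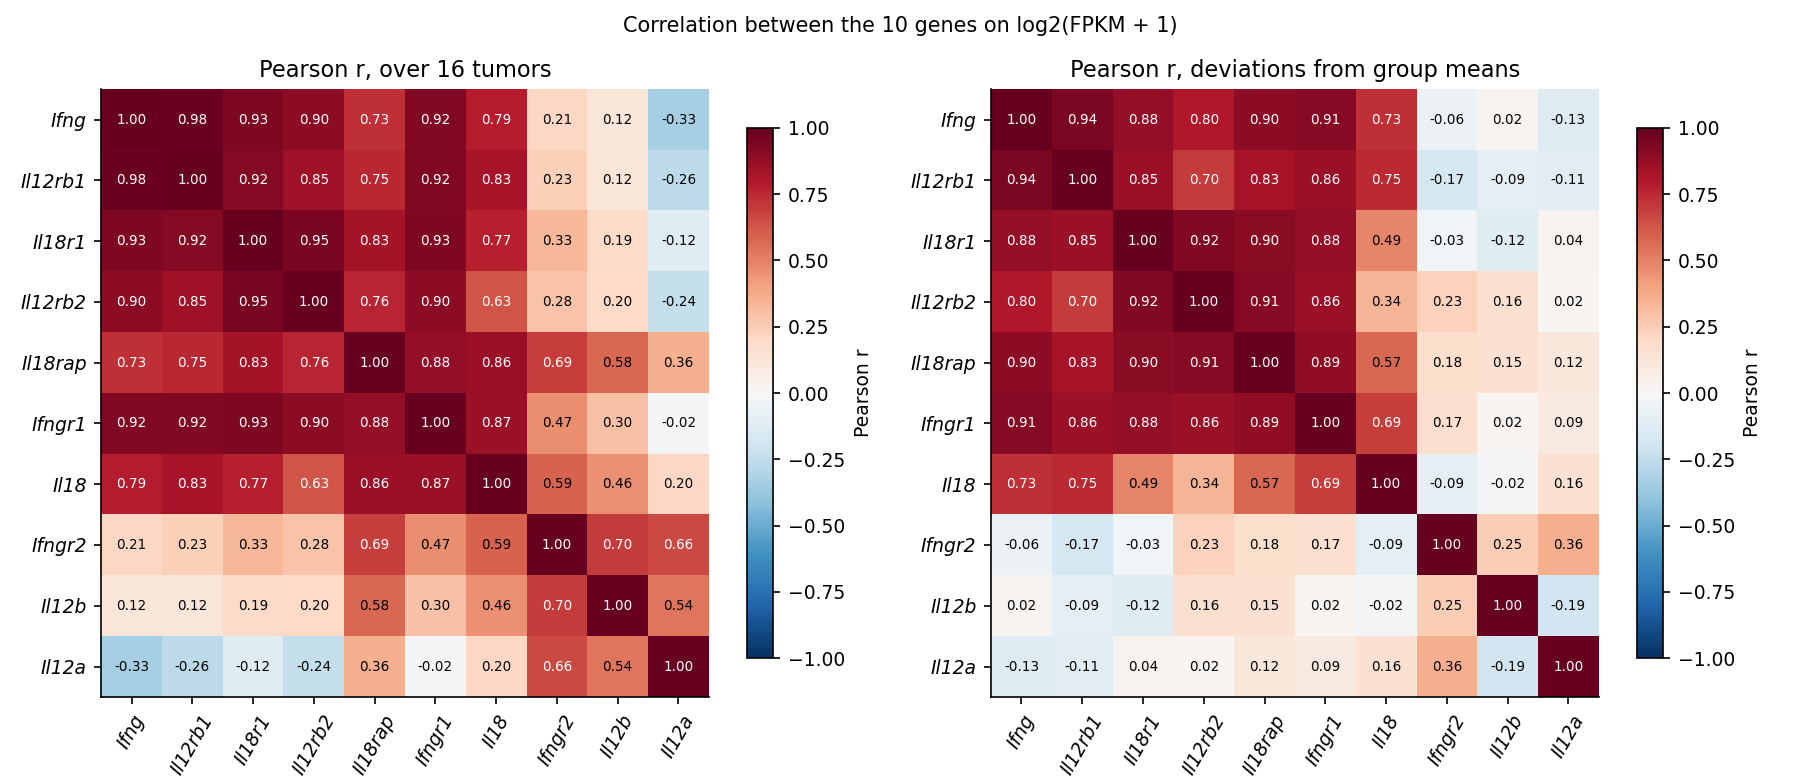
Pearson's r between the 10 genes on log2(FPKM + 1), over 16 tumors on the left and on deviations from group means on the right, with color and number giving r. Ifng, Il12rb1, Il18r1, Il12rb2, Il18rap and Ifngr1 form a block with r from 0.70 to 0.94 within groups.

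The genes most like each of the 7 tested genes over the 16 tumors were named by the highest Pearson's r. For Ifng they were Klrc1 (0.993), a receptor gene of NK and CD8 T cells, Rgs16 (0.988) and Prf1 (0.985), which encodes perforin. For Il12rb1 they were Sh2d2a (0.982), an adaptor of activated T cells, Socs1 (0.980) and Gbp9 (0.978), for Il12rb2 2900026A02Rik (0.965), the NK receptor gene Ncr1 (0.964) and Gng2 (0.962), and for Il18rap Pstpip1 (0.984), Nedd9 (0.981) and Spata13 (0.981). Ifngr1 was most like Unc13d (0.974), Stk26 (0.971) and Klrd1 (0.971), and Il18 was most like Arap1 (0.970), Slc25a45 (0.968) and Cnppd1 (0.965). Ifngr2 was most like Relb (0.929), Ccdc71l (0.927) and Nfkb2 (0.926), of which Relb and Nfkb2 encode subunits of NF-kB.

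Among the other genes of these pathways, the list of interferon gamma receptor signaling had 7 of 8 higher and 0 lower with α-KG + anti-PD1 than in vehicle, with a median log2 fold change of 1.41 beside 0.15 for all genes. The counts of this and the following lists stand beside 34.9% of all genes higher in that comparison, 14.2% against anti-PD1, 31.8% against α-KG, and 8.4% with α-KG alone and 0.467% with anti-PD1 alone against vehicle, and they were not tested against those shares. Irf1, a transcription factor induced by interferon gamma, rose from 9.38 to 73.5 FPKM (log2 fold change 3.02, limma adjusted p = 0.000961). Of the feedback inhibitors of JAK kinases, Socs1 rose from 1.25 to 18.8 FPKM (2.84), and Socs3 rose from 5.58 to 20.1 FPKM (1.61) but was at 54.0 FPKM with α-KG alone, from which it fell by 1.40 (adjusted p = 0.00266). With α-KG alone 3 of the 8 were higher, and with anti-PD1 alone 0 of the 8 passed limma's threshold.

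All 19 tested genes of the list induced by interferon gamma were higher with α-KG + anti-PD1 than in vehicle, with a median log2 fold change of 3.02. They included the guanylate-binding proteins Gbp4 (1.12 to 37.5 FPKM, log2 fold change 4.14) and Gbp2 (5.72 to 79.1 FPKM, 3.89) and the immunity-related GTPases Iigp1 (3.10 to 56.6 FPKM, 4.04) and Igtp (7.28 to 97.7 FPKM, 3.95). Against anti-PD1 10 of the 19 and against α-KG 17 of the 19 were higher. With α-KG alone 2 of the 19 were higher, a share near the 8.4% of all genes, with a median of 0.47, and with anti-PD1 alone 0 of the 19 passed, with a median of 1.46. Irf1 and Socs1 are among the genes on both lists.

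On the interleukin 12 side, all 7 genes of receptor signaling and type 1 T-helper (Th1) factors were higher with α-KG + anti-PD1 than in vehicle (median log2 fold change 1.54), 5 were higher than with anti-PD1 and 3 higher than with α-KG. Tbx21, which encodes the Th1 factor T-bet, rose from 0.0750 to 4.23 FPKM (log2 fold change 1.95, limma adjusted p = 0.00196). Stat4, the main transcription factor activated by the interleukin 12 receptor, rose from 0.305 to 3.15 FPKM (1.54), Eomes from 0.218 to 3.23 FPKM (1.62) and Runx3 from 0.788 to 7.18 FPKM (1.96). The vehicle means of Tbx21, Stat4 and Eomes were below the 0.5 FPKM of the filter on low values. Their place among the tested genes rests largely on the other groups, the combined one among them. Their calls against vehicle, and their part in the count of 7, are not separate evidence. With α-KG alone 3 of the 7 were higher. With quantile-normalized values 5 of the 7 passed for α-KG + anti-PD1 against vehicle.

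Of the other cytokines and receptors of the interleukin 12 family, 3 of 5 tested were higher with α-KG + anti-PD1 than in vehicle (median log2 fold change 0.88), and 2 of 5 were higher with α-KG alone. Ebi3, a subunit of interleukin 27, was at 8.95 FPKM with α-KG, 0.818 FPKM in vehicle and 6.05 FPKM with α-KG + anti-PD1. Il23a, which pairs with the Il12b product to form interleukin 23, was at 2.32 FPKM with α-KG, 0.295 FPKM in vehicle, 0.362 FPKM with anti-PD1 and 0.390 FPKM with α-KG + anti-PD1. Il23a rose by 1.26 with α-KG against vehicle (limma adjusted p = 0.00177) and fell by 1.18 from α-KG to α-KG + anti-PD1 (adjusted p = 0.00191). Its limma interaction of -1.25 passed (adjusted p = 0.0272). In every group but α-KG its mean lay below the level of the filter on low values. Its place among the tested genes thus rests largely on the α-KG tumors, and these calls are not separate evidence. The same holds for its part in the 2 of 5 counted as higher with α-KG alone. Il27 rose from 0.195 to 1.24 FPKM (0.88, limma adjusted p = 0.00540) and Il27ra from 0.178 to 3.14 FPKM (1.66, adjusted p = 0.000934) with α-KG + anti-PD1 against vehicle. Both vehicle means lay below the level of the filter too. The calls of Il27 and Il27ra, and their part in the 3 of 5, are therefore not separate evidence.

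Of 12 tested genes of interleukin 18 processing, decoy and signaling, 9 were higher with α-KG + anti-PD1 than in vehicle (median log2 fold change 1.23) and 5 with α-KG alone. Il18bp, which encodes the secreted decoy that binds interleukin 18, rose from 3.23 to 27.1 FPKM (log2 fold change 2.80, limma adjusted p = 0.00206) and was at 3.93 FPKM with α-KG. Casp1, the caspase that cuts the interleukin 18 precursor, rose from 1.12 to 9.79 FPKM (2.30) and the pore-forming Gsdmd from 2.09 to 14.5 FPKM (2.29). Casp4 was at 1.25 FPKM in vehicle, 7.67 FPKM with α-KG and 8.22 FPKM with α-KG + anti-PD1, and rose in both against vehicle (1.96 and 2.04). With centered tumors 7 of the 12 were higher and 1 lower for α-KG + anti-PD1 against vehicle.

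Of the other interferons and their receptors, 4 of 11 were tested, all of them receptor chains, and 3 of these were higher both with α-KG + anti-PD1 and with α-KG alone than in vehicle. Ifnar1, a chain of the type I interferon receptor, rose to 17.8 FPKM (log2 fold change 0.42, limma adjusted p = 0.000825) and Ifnar2 from 27.8 to 36.7 FPKM (0.39, adjusted p = 0.0160) with α-KG + anti-PD1. Il10rb rose from 57.5 to 73.1 FPKM (0.34), and Ifnlr1 was at 0.350 FPKM in vehicle and 0.615 FPKM with α-KG + anti-PD1 (0.25, adjusted p = 0.0725). After centering the tumors on their medians 0 of the 4 passed against vehicle with α-KG + anti-PD1 (median 0.05) and 3 of the 4 passed with α-KG alone. The type I and III interferon genes of the list themselves did not reach 0.5 FPKM in 4 tumors.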

How the data were processed

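RNA of 16 tumors was sequenced from poly(A) transcripts with dUTP marking of the second strand on a DNBSEQ instrument. The authors deposited FPKM values with 2 decimals for 18929 genes. The submitters' processing notes name HISAT, Bowtie2 and mm10 without roles, and the counting program and annotation are not given in the sources used here. The depth is unknown: of 282 low values, 27.0% lay near a whole step (tolerance 0.15), where chance gives 30%.

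The 10 genes and the lists of other genes and markers were chosen with earlier results of these data known. Tests were run on log2(FPKM + 1) for the 12850 genes that had 4 tumors or more at 0.5 FPKM or above. 1 mean per group was fitted to the 16 tumors with limma 3.58.1 (trended eBayes, run in R 4.3.3), with Benjamini-Hochberg adjustment across the tested genes and a threshold of 0.05. Comparisons that share a group of tumors are not independent. Exact two-sided permutation tests used the 70 splits of 8 tumors, with ratios taken after adding 0.1 FPKM, in scipy 1.17.1 (Python 3.11.15, pandas 2.3.3, numpy 2.4.6). The fit was tested on simulated data. Coordinates are from GENCODE M21 on GRCm38, the build of mm10, and start regions from RefSeq GRCm38.p6. Named genes outside the 10 were the 4 of each pathway list with the largest log2 fold change of α-KG + anti-PD1 against vehicle, and the 3 most correlated with each gene. A gene that these rules name is not reported here. Alternatives were another pseudocount, no filter, 4 scalings, other settings of limma, only the groups compared, a replicate block and each tumor left out in turn.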

Additional observations from a re-analysis of the deposited data

Results flagged for a closer look

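Il12a stood out in 3 respects. In the vehicle group tumor 3, at 0.06 FPKM, stood apart from 3 tumors listed at 0, and in the α-KG group tumor 2, at 0.37 FPKM, stood apart below the other 3, which lay between 1.05 and 1.10 FPKM. Chance gives a gap like that of the α-KG group in about 1 in 20 groups, and 40 groups of 4 tumors were examined. That rate does not apply to the vehicle group, where 3 tumors were tied at 0 and any other value of the fourth would stand apart. The interaction of Il12a was -0.81 on the log2 scale (limma without a filter on low values, SE 0.15, adjusted p = 0.00737). Without α-KG, Il12a was at or near 0 in vehicle and at 0 in all anti-PD1 tumors, so anti-PD1 could not lower it there. The interaction therefore largely repeats the fall of 0.83 from α-KG to α-KG + anti-PD1 and is not separate evidence. Over the alternatives its adjusted p ran from 1.96e-06 to 0.0205, and leaving out single tumors the value ran from -0.96 to -0.75. All 4 α-KG tumors were above all 4 α-KG + anti-PD1 tumors.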

How the results depend on the processing

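Over the alternatives, the count of genes higher with α-KG + anti-PD1 than in vehicle stayed at 6 or 7 when each tumor was left out. Against anti-PD1 the count of 5 became 3 with a pseudocount of 0.1, 2 after quantile normalization and 0 with only the groups compared, and ran from 0 to 6 with a tumor left out. Against α-KG the count of 5 became 2 after quantile normalization, 2 after centering and 3 with only the groups compared, and ran from 2 to 5 with a tumor left out, while 1 gene became lower with no filter (Il12a) and 1 after centering (Ifngr2). With no filter the count of genes higher with α-KG than in vehicle was 5. Between α-KG and anti-PD1 1 gene became higher with no filter, 1 after quantile normalization, 1 after centering and 1 with only the groups compared. For the interaction 1 became lower with no filter, and from 0 to 1 was positive with a tumor left out. The causes were not tested.

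The following values changed sign, none of them past the threshold. After quantile normalization Ifng with α-KG against vehicle was -0.051 and Il12rb2 with anti-PD1 against vehicle -0.085. After centering the Il18 interaction was -0.064, Ifngr2 with α-KG + anti-PD1 against anti-PD1 was -0.0077, and in the fit without a filter Il12a with α-KG + anti-PD1 was -0.26 against vehicle and -0.16 against anti-PD1, and Il12b was -0.037 against vehicle and -0.068 for anti-PD1 against vehicle. After rescaling to the same sum Ifngr1 with α-KG against anti-PD1 was -0.0069 (-0.056 without hemoglobin genes), Ifngr2 with α-KG + anti-PD1 against α-KG was 0.12 and the Il18rap interaction 0.062. With a tumor left out the range crossed 0 for α-KG against vehicle in Ifng (-0.11 to 0.21) and Il12rb2 (-0.065 to 0.013), for the interaction in Il18 (-0.029 to 0.26) and Il18rap (-0.36 to 0.26), for α-KG against anti-PD1 in Ifngr1 (-0.11 to 0.10) and Il18r1 (-0.012 to 0.11) and for anti-PD1 against vehicle in Il12b (-0.023 to 0.075).

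Tumors with the same replicate number did not pair, since their deviations from group means had r from -0.64 to 0.41 and 4 of 16 tumors correlated best with their own number. With the replicate block the count against anti-PD1 was 4, that against vehicle 7 and that against α-KG 5. Alternatives for Il12a, Il12b and Il18r1, and the other scalings of the gene lists, were chosen after seeing the data. Unknown depth limits the genes under 1 FPKM.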
